A study of Mus musculus with 6 samples.

Results

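Photoreceptor precursor factors and early photoreceptor products were followed in the embryonic mouse eye with and without Oa1, the gene now named Gpr143. The group holds 10 genes chosen by name: Crx, Nrl, Nr2e3, Thrb, Rxrg, Prdm1, Rcvrn, Rbp3, Rorb and Casz1. Every probe set that the platform annotation assigns to a member was taken, which gave 16 of the 45101 probe sets on the Affymetrix mouse arrays. These 16 cover 9 of the 10 genes, since no probe set carries the symbol Nr2e3 in the annotation used here. The Oa1-/- group consisted of 3 arrays and the wild-type (WT) group of 3 arrays, all from embryos at embryonic day 15.5. Each array measured RNA of 1 litter, pooled from the posterior eyes of 6 embryos, and every litter had its own dam. Strain background, embryo sex and the size of the deletion were not stated in the labels used here. The Gpr143 protein is a receptor on the melanosomes of pigment cells, and the photoreceptor lineage develops beside the pigment epithelium.

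Photoreceptors arise from dividing retinal progenitors in a fixed succession of cell types, with cones among the early-born cells and rods born over a longer period. The homeobox factor Otx2 commits cells to this lineage and turns on Crx, a related homeobox factor that drives most photoreceptor genes. Nrl, acting with Nr2e3, directs a precursor to become a rod, and in its absence cells become cones that use Thrb and Rxrg to set their opsin. At the age studied, precursors are present but most outer segment genes are still to come.

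Since Crx and Otx2 act on promoters of this lineage, the members' promoter windows that hold the core of their recognition sequence are given. The motif searched was TAATCC on both strands (GGATTA where it lies on the strand opposite to the one printed). Windows run from 250 bases before to 50 bases after a gene's start, from RefSeq on GRCm38.p6, and 9 of the 10 members had at least 1 window (all but Rcvrn). Of the 13 member windows, 4 held the motif, 1 each for Crx, Thrb, Rbp3 and Casz1, while 7.06% of all 32851 windows did. The capitals mark the motif, which starts at positions −94 and −21 from the gene start for Crx, −46 for Thrb, −69 for Rbp3, and −147 and −33 for Casz1.
Crx (chr7:15879906-15880205, minus strand): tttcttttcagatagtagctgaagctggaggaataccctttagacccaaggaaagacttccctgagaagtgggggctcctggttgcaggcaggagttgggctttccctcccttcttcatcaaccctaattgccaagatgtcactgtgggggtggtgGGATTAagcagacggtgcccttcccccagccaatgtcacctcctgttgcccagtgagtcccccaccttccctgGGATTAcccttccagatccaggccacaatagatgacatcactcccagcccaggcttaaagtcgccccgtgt
Thrb (chr14:17660710-17661009, plus strand): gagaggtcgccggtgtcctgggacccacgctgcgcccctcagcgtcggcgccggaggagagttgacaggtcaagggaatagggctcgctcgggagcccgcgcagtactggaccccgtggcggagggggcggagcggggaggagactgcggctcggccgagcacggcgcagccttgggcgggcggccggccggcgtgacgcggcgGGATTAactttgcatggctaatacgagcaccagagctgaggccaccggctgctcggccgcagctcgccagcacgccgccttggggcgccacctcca
Rbp3 (chr14:33953753-33954052, plus strand): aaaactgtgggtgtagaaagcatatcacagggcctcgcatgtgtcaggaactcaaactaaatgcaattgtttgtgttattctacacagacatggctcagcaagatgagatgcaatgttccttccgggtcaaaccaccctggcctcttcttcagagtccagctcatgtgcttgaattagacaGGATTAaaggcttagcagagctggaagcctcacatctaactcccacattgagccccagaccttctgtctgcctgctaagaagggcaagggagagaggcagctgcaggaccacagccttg
Casz1 (chr4:148889097-148889396, plus strand): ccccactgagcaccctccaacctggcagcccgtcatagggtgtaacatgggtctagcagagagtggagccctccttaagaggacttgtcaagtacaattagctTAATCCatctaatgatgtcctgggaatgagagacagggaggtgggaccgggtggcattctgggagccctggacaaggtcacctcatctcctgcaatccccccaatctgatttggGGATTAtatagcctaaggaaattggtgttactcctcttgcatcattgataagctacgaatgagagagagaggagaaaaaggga
Of the other motifs searched on both strands, the core of the Nrl recognition sequence, TGCTGAC, lay in 1 member window (Rorb) and 4.67% of all windows, and the nuclear receptor recognition core AGGTCA in 3 member windows (Thrb, Rxrg and Casz1) and 16.3% of all windows. Both Thrb and Casz1 have a further window without TAATCC. A match is a description of these letters and not a measured binding site.

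The arrays had been scaled alike, with median signals of 93.6, 118 and 129 on the Oa1-/- arrays and 117, 121 and 108 on the WT arrays. Gpr143 read 28.3, 39.1 and 6.02 on the Oa1-/- arrays, against 250, 257 and 246 on the WT arrays, so all 6 arrays followed their labels at this probe set. Its log2 change was −2.82, yet its adjusted p was 0.287 in limma. Bacterial control probe sets, which match no mouse RNA, reached at most 22.1 to 39.3 depending on the array, and signals in that range lie near the background. WT replicate 3 stood apart at Y-linked genes, with Eif2s3y at 9.26 against 406 to 805 on the other 5 arrays. Kdm5d read 13.5 there against 377 to 736, and Uty 14.4 against 189 to 250. Each lay below the highest bacterial control of WT replicate 3, 29.9, so that array showed no Y-linked RNA above background at these genes, unlike the other 5. The 3' control for 18S ribosomal RNA read 6348, 2618 and 2608 on the Oa1-/- arrays, against 1476, 1988 and 1988 on the WT arrays, so Oa1-/- replicate 1 stood apart and the groups did not overlap. The tissue was posterior eye by its label, and lens markers were present in it. The summed signal of 13 measured lens markers was 216599 to 233880 on the Oa1-/- arrays and 176841 to 236012 on the WT arrays.

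None of the members passed the test between genotypes. Changes are Oa1-/- minus WT on the log2(signal + 16) scale, and probe sets in the dimmest 40% by mean were not tested. Of the 16 probe sets, 12 of 8 genes were tested, and 0 of those 12 had an adjusted p below 0.05 in limma, where 0.0% of all 27029 tested probe sets did. At an unadjusted p below 0.05, limma gave 1 of 12 members, a Rorb probe set that was lower in Oa1-/-, against 4.11% of all tested probe sets in either direction and 2.45% in that one. The mean was higher in Oa1-/- for 10 of the 12 and lower for 2, where 47.5% of all tested probe sets were higher. The log2 changes ran from −0.30 to 0.31. Taking the brightest probe set of each gene, the median change of the 8 genes tested was 0.16, beside 0.0027 over all 12901 genes tested. Leaving out WT replicate 1 gave −0.031 and leaving out WT replicate 3 gave 0.32.

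Over the 12 tested probe sets, 25 of 36 Oa1-/- values lay inside the WT range. The 36 values come from 8 genes on the same 3 arrays, and this count was not made over all tested probe sets. On 9 of the 12 tested probe sets WT replicate 1 gave the lowest signal of all 6 arrays, which held for 19.4% of all tested probe sets. WT replicate 3 gave the highest signal of the 6 on 7 of the 12, beside 19.7% of all tested probe sets. WT replicate 1 was the lowest and WT replicate 3 the highest of the WT arrays on 9 of the 12, beside 20.9% overall. On 5 of the 12 all 3 Oa1-/- arrays lay inside the WT range, beside 20.4% overall. In posterior eye RNA, fewer precursors and less RNA per precursor cannot be told apart.

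**Figure D1:**
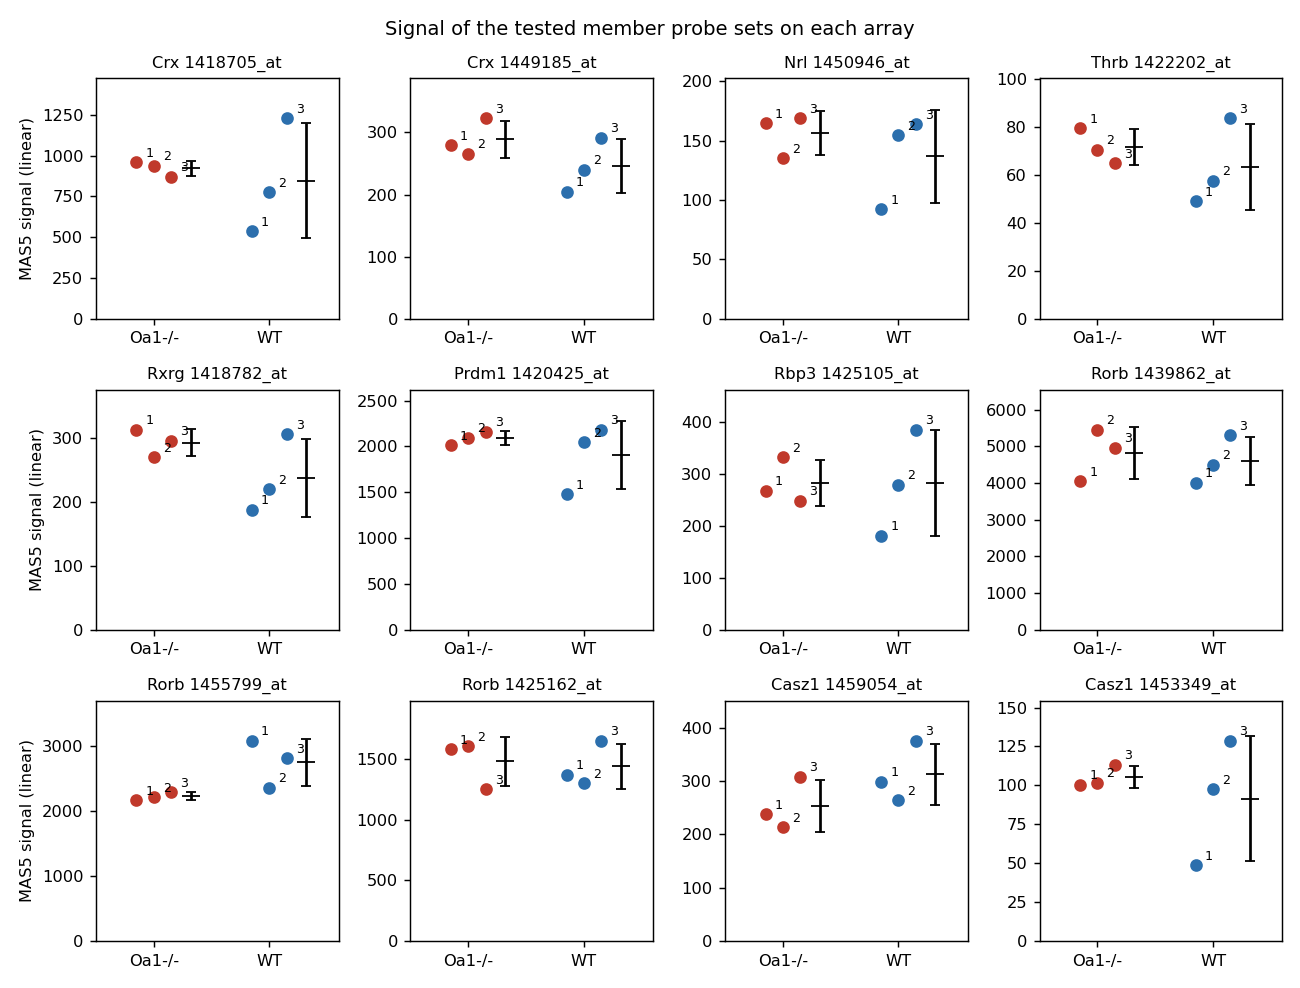
MAS5 signal on a linear axis for the 12 tested member probe sets, with Oa1-/- arrays in red and WT arrays in blue, the replicate number beside each point, and the mean with its SD in black (n = 3 each). WT replicate 1 is the lowest of the 6 points on 9 of the 12 panels, and the groups are apart without overlap on 1 (Rorb 1455799_at).

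Crx, the homeobox activator of most photoreceptor genes, had 2 probe sets. Its brighter probe set, 1418705_at, read 961, 937 and 871 on the Oa1-/- arrays, against 538, 775 and 1228 on the WT arrays. The Oa1-/- litters sat close together in the middle of a WT range that spanned 2.28-fold. The means were 923 ± 46.5 in Oa1-/- and 847 ± 351 in WT (SD, n = 3 each) with a log2 change of 0.20 in limma (SE 0.25, adjusted p = 0.985) and a 95% interval of 0.772-fold to 1.71-fold. The other probe set, 1449185_at, read 279, 266 and 322 in Oa1-/-, against 205, 240 and 292 in WT. Here too WT replicate 1 was lowest, and 2 of 3 Oa1-/- arrays lay inside the WT range. Its log2 change was 0.23 (SE 0.17, adjusted p = 0.985 in limma), with 0.11 when WT replicate 1 was left out and 0.35 when WT replicate 3 was. Without WT replicate 1 the change at 1418705_at was −0.081, and without WT replicate 3 it was 0.50.

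Prdm1, a zinc finger repressor that keeps Otx2-positive precursors from becoming bipolar cells, was measured by 1 probe set. It read 2013, 2095 and 2162 on the Oa1-/- arrays, against 1481, 2043 and 2183 on the WT arrays. WT replicate 1 lay well below the other 5, which fell within a narrow band. The means were 2090 ± 74.6 in Oa1-/- and 1902 ± 371 in WT (SD, n = 3 each). In limma the log2 change was 0.15 (SE 0.14, adjusted p = 0.985). Without WT replicate 1 the change was −0.016.

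The rod determinant Nrl, a leucine zipper factor of the Maf family, had 1 probe set of modest brightness. It read 165, 135 and 169 on the Oa1-/- arrays, against 92.1, 155 and 164 on the WT arrays. All 6 values were above the highest bacterial control, and WT replicate 1 was again the lowest. The log2 change was 0.20 (SE 0.23, adjusted p = 0.985 in limma), and −0.032 without WT replicate 1. Nr2e3, the nuclear receptor that represses cone genes in rods, has no expression value here.

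WT replicate 1 was also the lowest array for both cone factors. Thrb, the thyroid hormone receptor whose retinal form is needed for the medium-wave cone opsin, was the dimmest member tested, at 79.5, 70.4 and 64.9 on the Oa1-/- arrays, against 49.1, 57.6 and 83.5 on the WT arrays. The WT arrays enclosed all 3 Oa1-/- values, and the log2 change was 0.16 (SE 0.24, adjusted p = 0.985 in limma). It was 0.030 with WT replicate 1 left out and 0.34 with WT replicate 3 left out. Rxrg, a retinoid X receptor that partners thyroid hormone receptors in cones, read 313, 270 and 295 on the Oa1-/- arrays, against 187, 220 and 305 on the WT arrays. Its Oa1-/- arrays lay above WT replicates 1 and 2 and around WT replicate 3. The log2 change of 0.31 (SE 0.19, 95% interval 0.915-fold to 1.68-fold, adjusted p = 0.985 in limma) was the highest of the members tested. Leaving out WT replicate 1 gave 0.16 and leaving out WT replicate 3 gave 0.49, and it stayed positive with each array left out.

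Rorb, an orphan nuclear receptor that acts before Nrl in rod development and is also made in other retinal cells, had 3 tested probe sets that differed from each other. The brightest, 1439862_at, read 4047, 5456 and 4966 on the Oa1-/- arrays, against 4006, 4503 and 5299 on the WT arrays, a log2 change of 0.07 (SE 0.13). The groups overlapped almost wholly there. At 1455799_at the signals were 2171, 2213 and 2292 in Oa1-/-, against 3084, 2362 and 2815 in WT. All 3 Oa1-/- arrays were below all 3 WT arrays. Groups without overlap, in either direction, occurred for this 1 of the 12 tested members and for 10.2% of all tested probe sets. Its log2 change was −0.30 (SE 0.11, 95% interval 0.689-fold to 0.961-fold, unadjusted p 0.021 and adjusted p = 0.985 in limma). With 1 array left out the change ran from −0.40 to −0.21, and the unadjusted p in limma from 0.00342 to 0.072. That p was 0.163 with median centring, 0.0522 with no trend and 0.0607 with array weights. It stayed below 0.05 with the other pseudocounts and filters, quantile normalization and the replicate block. At 1425162_at the signals were 1582, 1605 and 1250 in Oa1-/-, against 1368, 1301 and 1649 in WT, a log2 change of 0.04 (SE 0.13). The lower mean in Oa1-/- was thus found on 1 of the 3 probe sets, and which transcripts each probe set reads is not stated in the annotation used here.

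Casz1, a zinc finger factor of retinal progenitors that influences the share of rods formed, had 4 probe sets, 2 of them tested. The brightest, 1459054_at, read 238, 213 and 308 on the Oa1-/- arrays, against 298, 264 and 376 on the WT arrays. In limma the log2 change was −0.29 (SE 0.19, adjusted p = 0.985), between −0.43, when Oa1-/- replicate 3 was left out, and −0.16, when WT replicate 3 was. WT replicate 3 was the highest array there, but WT replicate 1 was not the lowest. The dimmer 1453349_at read 100, 102 and 113 in Oa1-/-, against 48.6, 97.4 and 129 in WT, with the opposite sign, 0.25 (SE 0.30, adjusted p = 0.985 in limma). WT replicate 1 decided that sign, since the change was −0.083 without it. The 2 untested probe sets read from 7.28 to 55.4. One of them, 1442010_at, read 54.6, 37.5 and 47.0 in Oa1-/- and 34.9, 11.8 and 23.2 in WT. Of its 6 values, 4 were above the highest bacterial control of their array. The other, 1446975_at, read 22.7, 7.28 and 55.4 in Oa1-/- and 29.65, 16.9 and 49.3 in WT, with 3 of 6 above it.

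Among the early products, Rbp3 encodes the retinoid carrier of the space between photoreceptors and pigment epithelium. Its probe set 1425105_at read 267, 332 and 248 on the Oa1-/- arrays, against 181, 279 and 385 on the WT arrays. The means nearly coincided, at 282 ± 43.7 in Oa1-/- and 282 ± 102 in WT (SD, n = 3 each), while the WT litters spanned 2.12-fold. The log2 change was 0.05 (SE 0.25, 95% interval 0.692-fold to 1.55-fold, adjusted p = 0.996 in limma), with −0.22 without WT replicate 1 and 0.30 without WT replicate 3. The other Rbp3 probe set, 1457855_at, was not tested, with signals of 3.43 to 26.9 in Oa1-/- and 7.66 to 39.3 in WT. Rcvrn, which encodes the calcium sensor recoverin, read 3.62, 2.27 and 16.1 in Oa1-/-, against 3.45, 6.86 and 3.51 in WT. All 6 values lay below the highest bacterial control of their array, so this probe set gave no measure of Rcvrn in either genotype.

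**Figure D2:**
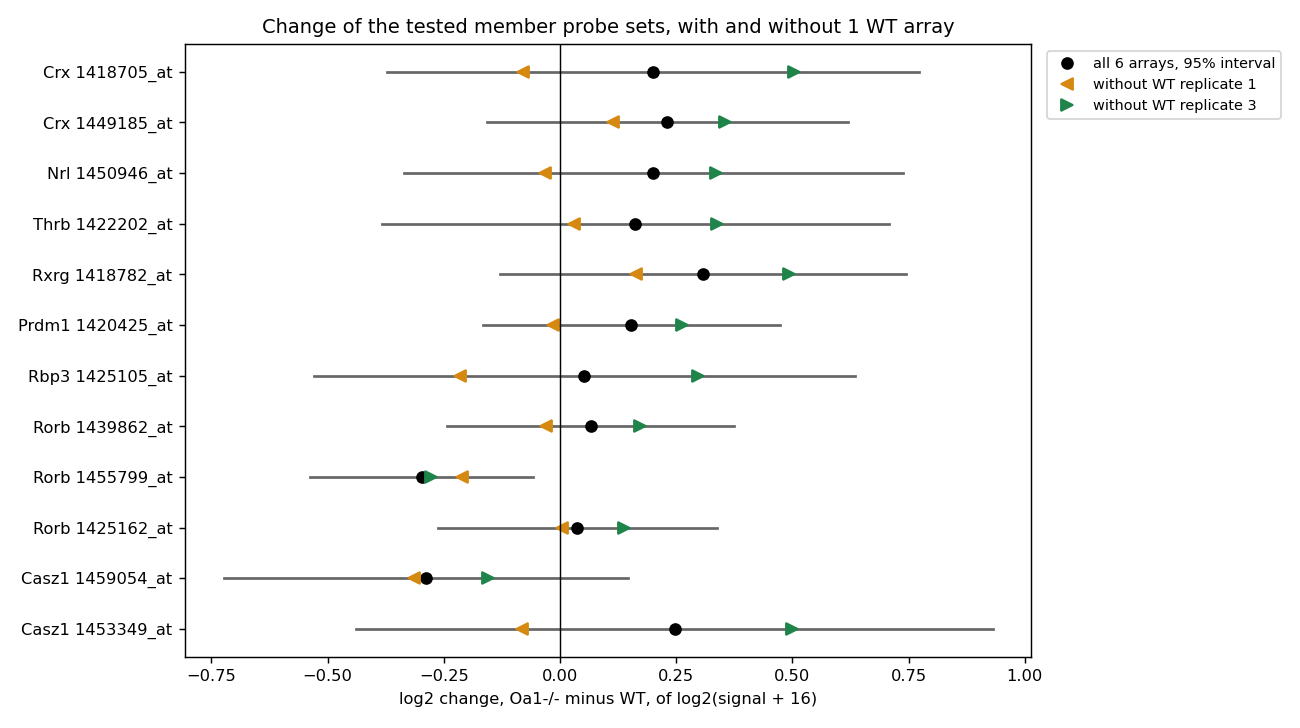
Log2 change (Oa1-/- minus WT, on the log2(signal + 16) scale) of each tested member probe set over all 6 arrays with its 95% interval (black), without WT replicate 1 (orange) and without WT replicate 3 (green). For Crx 1418705_at the points lie at 0.20, −0.081 and 0.50, and the interval of 1 probe set, Rorb 1455799_at, lies wholly on one side of 0.

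The spread within each genotype was uneven. The SD of the log2 values was smaller among the Oa1-/- arrays than among the WT arrays on 9 of the 12 tested member probe sets, which held for 49.3% of all tested probe sets. Its median over the 12 was 0.13 in Oa1-/- and 0.306 in WT, beside 0.156 in Oa1-/- and 0.167 in WT over all tested probe sets. Crx 1418705_at had an SD of 0.0722 in Oa1-/- and 0.585 in WT, and Prdm1 1420425_at had 0.0513 in Oa1-/- and 0.296 in WT. The exceptions were Rorb 1439862_at and 1425162_at and Casz1 1459054_at, whose SDs were slightly larger in Oa1-/- than in WT. The difference in spread was not tested.

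**Figure D3:**
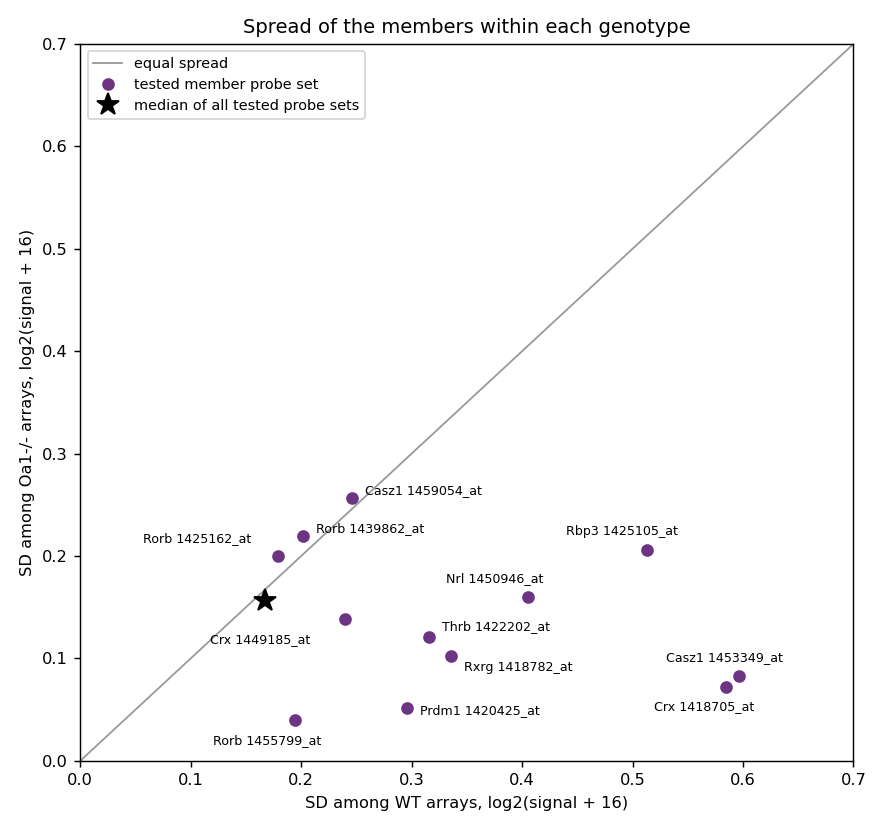
SD of log2(signal + 16) among the 3 Oa1-/- arrays (vertical axis) against that among the 3 WT arrays (horizontal axis) for the 12 tested member probe sets. Points below the line vary more among WT litters, as 9 of the 12 do, and the star at 0.156 among Oa1-/- arrays and 0.167 among WT arrays marks the medians of all tested probe sets.

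The members were also compared with probe sets of other genes by the shape of their profile over the 6 arrays. These came from the 22974 tested probe sets of 1 gene symbol, a number that includes the members' own. The distance was the root mean square difference of log2 values after each profile was centred on its mean. For Crx, whose values spanned 1.17 on the log2 scale, the nearest were Pdc (0.0632), Adcy1 (0.0701) and Cartpt (0.071). Pdc read 642, 580 and 553 on the Oa1-/- arrays, against 316, 489 and 718 on the WT arrays, with WT replicate 1 lowest and WT replicate 3 highest as for Crx. For Rbp3, which spanned 1.02, they were Tlcd3b (0.0533), Tulp1 (0.0891) and Ufm1 (0.0919). For Casz1 1459054_at, which spanned 0.774, they were Ehd2 (0.0559), Ankzf1 (0.0617) and Fam193a (0.064), and for Nrl, which spanned 0.773, Lrrn4cl (0.0502), Mmd2 (0.0553) and Ckmt1 (0.0584). Between the brightest probe sets of the 8 tested members, the distance was smallest for Thrb and Rxrg, at 0.0993. Probe sets of other genes lay nearer to each, with Trpc6 at 0.0331 from Thrb and Mapt at 0.0485 from Rxrg. The distance is not scaled for range, which was 0.613 for Thrb and 0.693 for Rxrg. Other probe sets of a gene can lie elsewhere, as the opposite signs of the Casz1 probe sets show. With 6 arrays these distances describe the profiles and carry no test.

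The list of upstream photoreceptor fate factors had more lower than higher means. It was set by name, and whether each gene acts before the members was not tested. Of 17 tested upstream factors of photoreceptor fate, 5 had a higher and 12 a lower mean in Oa1-/-, with a median log2 change of −0.05 beside 0.0027 over all genes tested, and 0 had an adjusted p below 0.05 in limma or an unadjusted p below 0.05. Leaving out WT replicate 1 gave a median of −0.066, with 4 higher and 13 lower. Leaving out WT replicate 3 gave 0.033, with 10 higher and 7 lower. Mef2c, a MADS-box factor, read 593, 444 and 526 in Oa1-/-, against 374, 520 and 433 in WT (log2 change 0.23), and Onecut1, a horizontal cell and cone fate factor, 206, 238 and 195 in Oa1-/-, against 225, 284 and 248 in WT (−0.23). The bHLH factor Neurod1 had a log2 change of −0.13 at its brightest probe set and 0.14 at another, and Neurod4 had one of 0.18. For Neurod4 WT replicate 1 was lowest, at 1139, and WT replicate 3 highest, at 2097, with 1599 to 1953 in Oa1-/-. Otx2, named for its place above Crx after its values were seen, read 5220, 5735 and 4893 in Oa1-/-, against 4322, 5166 and 5973 in WT, with the same WT arrays at the extremes. Its log2 change was 0.04 (adjusted p = 0.991 in limma).

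The listed cone genes were lowest on WT replicate 1 in 6 of 9 tested genes. Of the 9, 8 had a higher mean in Oa1-/- and 1 a lower, with a median log2 change of 0.24, and 0 had an adjusted p below 0.05 in limma. Over all 12901 genes tested, 50.9% had a higher mean and 3.65% an unadjusted p below 0.05 in limma. Without WT replicate 1 the median was −0.0024, with 4 higher and 5 lower, and without WT replicate 3 it was 0.33. With both WT replicate 3 and Oa1-/- replicate 1 left out it was 0.44. The 1 gene with an unadjusted p below 0.05 in limma was Gngt2, the gamma subunit of cone transducin, at 76.3, 87.7 and 120 in Oa1-/-, against 58.7, 48.1 and 56.5 in WT (log2 change 0.64, unadjusted p 0.0231, adjusted p = 0.985 in limma). Its Oa1-/- arrays were all above its WT arrays, where 10.2% of all tested probe sets had groups without overlap in either direction. WT replicate 1 was the highest of its WT arrays, unlike for Crx. Pde6c, the catalytic subunit of the cone phosphodiesterase, read 109, 176 and 160 in Oa1-/-, against 45.8, 98.8 and 206 in WT (0.47). Gnb3, the cone transducin beta subunit, read 330, 412 and 347 in Oa1-/-, against 156, 342 and 348 in WT (0.42), with WT replicate 1 lowest in both genes. Pde6h, the inhibitory subunit, read 73.4, 84.0 and 106 in Oa1-/-, against 72.8, 59.0 and 62.3 in WT (0.35). Its groups were also without overlap, by a narrow margin, and WT replicate 1 was the highest of its WT arrays, as for Gngt2.

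Rod genes were mostly too dim to follow. Of 30 measured genes of rod phototransduction and the outer segment, 11 passed the filter, of which 7 had a higher and 4 a lower mean in Oa1-/-, with a median log2 change of 0.05 and 0 with an adjusted p, or an unadjusted p, below 0.05 in limma. Leaving out WT replicate 1 gave a median of −0.016 and leaving out WT replicate 3 gave 0.12. Unc119, a lipid-binding trafficking protein, had a log2 change of 0.17, Pdc, the transducin-binding protein phosducin, 0.29, the disc rim protein gene Rom1 −0.28 and the retinoid transporter gene Abca4 0.10. The paralogues of the member factors had 4 higher and 8 lower of 12 tested genes, with a median of −0.09. Of the 12, 2 had an unadjusted p below 0.05 in limma, both lower, and 0 an adjusted one. Without WT replicate 1 the median was −0.12 and 0 had an unadjusted p below 0.05. Without WT replicate 3 it was −0.063 and 2 did. Of the paralogues, Rxrb, a second retinoid X receptor, had a log2 change of −0.54 (unadjusted p 0.0158, adjusted p = 0.985 in limma), Otx1 −0.53, Nr1d2 0.20 and Rxra −0.16. Rxrb read 1244, 1381 and 1779 in Oa1-/-, against 2573, 1675 and 2182 in WT, so its groups overlapped and WT replicate 1 was highest.

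The litters also differed in genes of other tissues, and those values are given beside the members because several lists were at their lowest or highest on WT replicate 1. All 13 tested lens markers were lowest on WT replicate 1. The summed signal of 13 muscle markers was 19086, 8265 and 12867 on the Oa1-/- arrays and 6413, 13693 and 18179 on the WT arrays. That of 7 measured red blood cell genes ran the other way, at 7149, 9151 and 10531 on the Oa1-/- arrays and 23695, 9333 and 3818 on the WT arrays. It was led by the embryonic globin Hbb-y, at 6006, 7654 and 8704 in Oa1-/-, against 19360, 7799 and 2752 in WT. Hba-x, the zeta globin, read 426, 614 and 896 in Oa1-/-, against 3132, 522 and 153 in WT. Genes on the bipolar cell list, some of which later depend on Crx too, had 4 higher and 4 lower of 8 tested, with a median of 0.04. They are not markers of bipolar cells alone, since Isl1 is also on the ganglion cell list. Of the 8, 7 were lowest on WT replicate 1. Leaving that array out turned the median to −0.11, with 2 higher and 6 lower, and leaving out WT replicate 3 gave 0.11. Retinal progenitor markers had a summed signal of 111838 to 115748 in Oa1-/- and 104078 to 113854 in WT. The 3' to 5' signal ratio of Gapdh, a sign of RNA quality, was 0.798 to 0.841 in Oa1-/- and 0.812, 0.823 and 0.985 in WT, with the highest value on WT replicate 3. The part of these differences in the members' values was not tested.

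**Figure D4:**
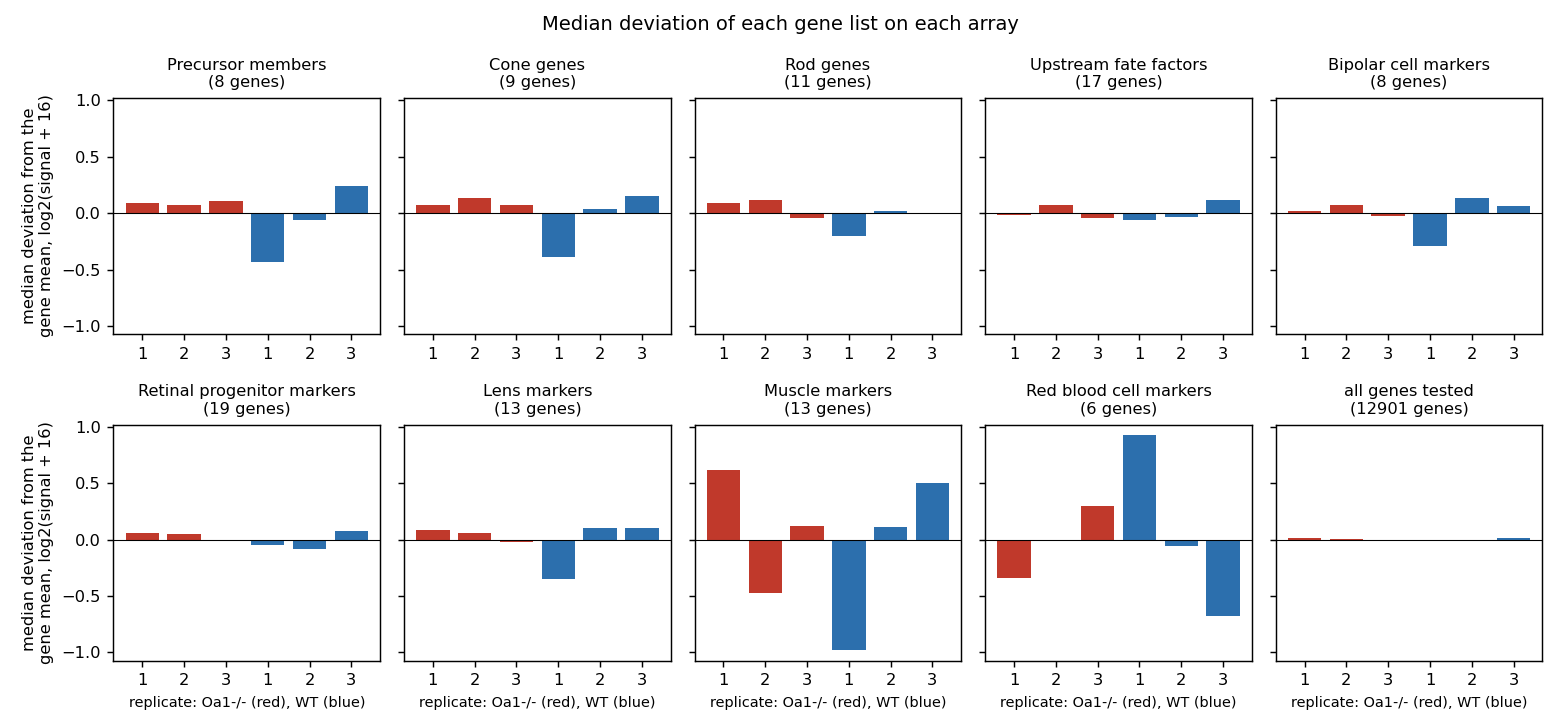
Median deviation of each gene list from its genes' means on each array, on the log2(signal + 16) scale, with Oa1-/- arrays in red and WT arrays in blue. The precursor members lie at −0.43 on WT replicate 1 and 0.24 on WT replicate 3, with 0.07 to 0.11 on the Oa1-/- arrays, while red blood cell markers lie at 0.93 on WT replicate 1 and −0.68 on WT replicate 3.

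The remaining lists are given by their counts, to be read beside the 50.9% of all 12901 genes tested that were higher in Oa1-/- and the 3.65% with an unadjusted p below 0.05 in limma. The same shares apply to the counts of the lists above. Retinal ganglion cell markers had 15 higher and 4 lower of 19 tested genes (median 0.09), progenitor markers 12 and 7 of 19 (0.07), amacrine and horizontal cell markers 9 and 8 of 17 (0.0053), and pigment epithelium markers 6 and 9 of 15 (−0.01). Lens markers had 13 higher and 0 lower of 13 (0.10), muscle markers 11 and 2 of 13 (0.15) and endothelial markers 8 and 1 of 9 (0.08). Macrophage markers had 4 higher and 5 lower of 9 (−0.06), periocular mesenchyme markers 3 and 13 of 16 (−0.17) and red blood cell markers 1 and 5 of 6 (−0.07). Many of these medians depended on single WT arrays. With WT replicate 1 left out they were 0.12 for ganglion cells, 0.024 for progenitors, −0.07 for amacrine and horizontal cells, −0.08 for pigment epithelium, −0.05 for lens, −0.24 for muscle, 0.13 for endothelium, −0.04 for macrophages, −0.20 for mesenchyme and 0.28 for red blood cells. With WT replicate 3 left out they were 0.14 for ganglion cells, 0.12 for progenitors, 0.28 for amacrine and horizontal cells, 0.07 for pigment epithelium, 0.18 for lens, 0.36 for muscle, 0.0031 for endothelium, −0.13 for macrophages, −0.23 for mesenchyme and −0.55 for red blood cells. The sign turned for amacrine and horizontal cells, pigment epithelium, lens, muscle and red blood cells. In each of these lists 0 genes had an adjusted p below 0.05 in limma. At an unadjusted p below 0.05 there were 5 ganglion cell and 2 progenitor genes, all higher in Oa1-/-, and 2 amacrine and horizontal cell genes, 1 pigment epithelium gene, 5 mesenchyme genes and 1 red blood cell gene, all lower. Some genes count in more than 1 list. Of those lower, Tfap2b is in the amacrine and horizontal cell and the mesenchyme lists, and Otx1 in the pigment epithelium and the paralogue lists. Isl1 is in the bipolar and the ganglion cell lists. The lens, muscle, endothelial and macrophage lists had 0.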

How the data were processed

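Expression was measured on 6 Affymetrix arrays from 12.5 micrograms of total RNA each, per the labels' protocols. The authors deposited linear MAS5 signal intensities, per the submitters' processing notes, which name no version. The mean after trimming 2% at each end was 500.002 on every array. GEO's platform annotation gave 34945 probe sets 1 symbol, 932 several and 9160 none, and 64 control probe sets were not tested.

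The computed values were log2(signal + 16), a scale that understates changes of dim probe sets. Probe sets whose mean log2 value lay above the 40th percentile (a signal of about 63.7) were kept, and 27029 were fitted with limma 3.58.1 in R 4.3.3 (lmFit, eBayes with a trend, two-sided), Oa1-/- minus WT, with Benjamini-Hochberg adjustment over all of them. With 3 arrays a genotype, precision is limited by their number. The fit was tested on simulated data. Lists were described by counts and medians of the brightest probe set of a gene. Named genes were all member probe sets, Gpr143, up to 4 genes of the smallest p in the lists described in full, and the nearest profiles of the 4 members of largest range. Otx2, the globins, the Y-linked genes, the nearest profiles of Thrb and Rxrg and the genes shared between lists were added after their values were seen. The members, lists and rules were chosen with earlier results of these data known. The alternatives comprised pseudocounts of 1 and 64, a filter at the 70th percentile, no filter, median centring, quantile normalization, array weights, a fit with no trend, the replicate block, and arrays left out. Correlations of same-numbered arrays' deviations were −0.294, 0.152 and −0.248, and they come from different dams, so the numbers were not taken as pairs. Promoter sequences came from RefSeq (GRCm38.p6).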

Additional observations from a re-analysis of the deposited data

How the results depend on the processing

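No member probe set was called at an adjusted p below 0.05 under any alternative run. Over all probe sets 0 were called by the model as reported and 2 each with median centring and with array weights. Gpr143 had an adjusted p of 0.000627 with median centring and 0.0644 to 0.999 under the other alternatives that tested it in limma, all but the 70th percentile filter. With the replicate block 0 probe sets and 0 members were called and the members' median stayed at 0.16. With the mean over a gene's probe sets it was 0.16. Other pseudocounts, filters, scalings, no trend, weights and the block kept the sign of each of the 12 tested member probe sets, of which 5 were left at the 70th percentile. Without a filter all 16 were tested, and 2 had an unadjusted p below 0.05 in limma and 0 an adjusted one. Over all 45037 probe sets then tested, 1968 had an unadjusted p below 0.05. Of the 2 members, 1 was Rorb 1455799_at and the other was among the dim probe sets that the filter removes. With array weights 1 of 12 had an unadjusted p below 0.05 in limma, beside 3090 of all 27029. It was Rorb 1439862_at (log2 change 0.22, unadjusted p 0.0439 in limma), not 1455799_at. Leaving out 1 array moved the members' median between −0.031 and 0.32. It turned the sign of 6 of 12 probe sets without WT replicate 1, 3 without Oa1-/- replicate 2, 1 without Oa1-/- replicate 1 and 1 without WT replicate 2. The changes then ran from −0.081 to 0.50 for Crx 1418705_at, −0.032 to 0.34 for Nrl, −0.016 to 0.26 for Prdm1, −0.22 to 0.30 for Rbp3 1425105_at, −0.083 to 0.50 for Casz1 1453349_at, −0.029 to 0.19 for Rorb 1439862_at and −0.031 to 0.15 for Rorb 1425162_at. Chosen after seeing the data, the list medians without WT replicate 1 or 3 ran from −0.0024 to 0.33 for cone genes, −0.016 to 0.12 for rod genes and −0.066 to 0.033 for upstream factors. Without both WT replicate 3 and Oa1-/- replicate 1 the medians were 0.44 for cone genes, 0.09 for rod genes, 0.072 for upstream factors and 0.30 for the members. There 3 of 12 members had an unadjusted p below 0.05 in limma (Crx 1418705_at, Rxrg and Rorb 1439862_at, all higher), beside 1533 of all 27029. Without WT replicate 3 alone 2 did (Crx 1418705_at and Rxrg, both higher), beside 1155. Without WT replicate 1 alone 0 did, beside 1070. The cause was not tested.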
